A study of Mus musculus with 6 samples.

Results

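Collagens and the fibroblast matrix genes that accompany them were followed in mouse brain at 3 and 28 days after implantation of a human breast cell line. The set was a list of 50 genes chosen by symbol and function, and all 50 were found among the 56748 genes of the table. Of these, 47 reached a mean normalized count of 10 over the 6 libraries and were tested. The bone and tendon proteoglycan gene Omd and the crosslinking enzyme genes Lox and Loxl2 did not reach it. Membership rests on gene identity, with no measured value in the rule, but the list was chosen with earlier results of these data known.

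All mice carried MCF10DCIS, a human cell line that forms lesions resembling early, duct-confined breast cancer, and the cells expressed the vesicle protein CD63 fused to the luciferase NanoLuc. The groups were brains taken at day 3 and brains taken at day 28, with 3 libraries each. The sources used here do not give the strain, age or sex of the mice or say how the brain was dissected, and no unimplanted mouse was used here. The series title names an intraductal model, in which cells are placed in the milk ducts. Separate animals are not stated for the libraries, and the p-values then measure only the spread between these samples, which may be technical. Libraries held 11958137 to 16059196 reads. A normalized count is a gene's reads divided by the library's size factor, and log2 differences are day 28 minus day 3 of log2(normalized count + 1), with standard error (SE) and adjusted p from limma over all 16162 genes tested.

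Collagens are triple-helical proteins built from 3 chains. The fibrillar types I, III, V and XI form the fibres of connective tissue, and type IV forms the sheet-like network of basement membranes with nidogen and perlecan. In the brain, fibrillar collagen is found mainly in the meninges and around larger vessels, where fibroblasts make it. Basement membrane collagen surrounds every capillary and is made largely by endothelial cells and pericytes. Small leucine-rich proteoglycans such as decorin bind collagen fibrils and set their spacing.

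Of the 47 tested members, 2 fell at day 28 and 0 rose. The 2 were Dcn, which encodes decorin, and Sparc, which encodes a collagen-binding glycoprotein made by many brain cell types. Among all genes tested 0.124% were called lower and 0.0681% higher, 31 genes or 0.192% in all. Differences were negative in 28 members and positive in 19, which is 59.6% negative beside 51.4% of all genes tested, and the median was -0.07 beside -0.01. Day 28 lay wholly below day 3 in 6 members and wholly above it in 3, while 9.21% of all genes tested lay wholly below and 9.71% wholly above. The first 6 were Dcn, Lum, Prelp, Sparc, Fn1 and Col13a1, and the other 3 were Postn, Fbn1 and Fbln2. In 9 of 47 members the unadjusted p was below 0.05, beside 13.4% of all genes tested. In bulk tissue, fewer cells of a type and less RNA per cell cannot be told apart.

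**Figure D1:**
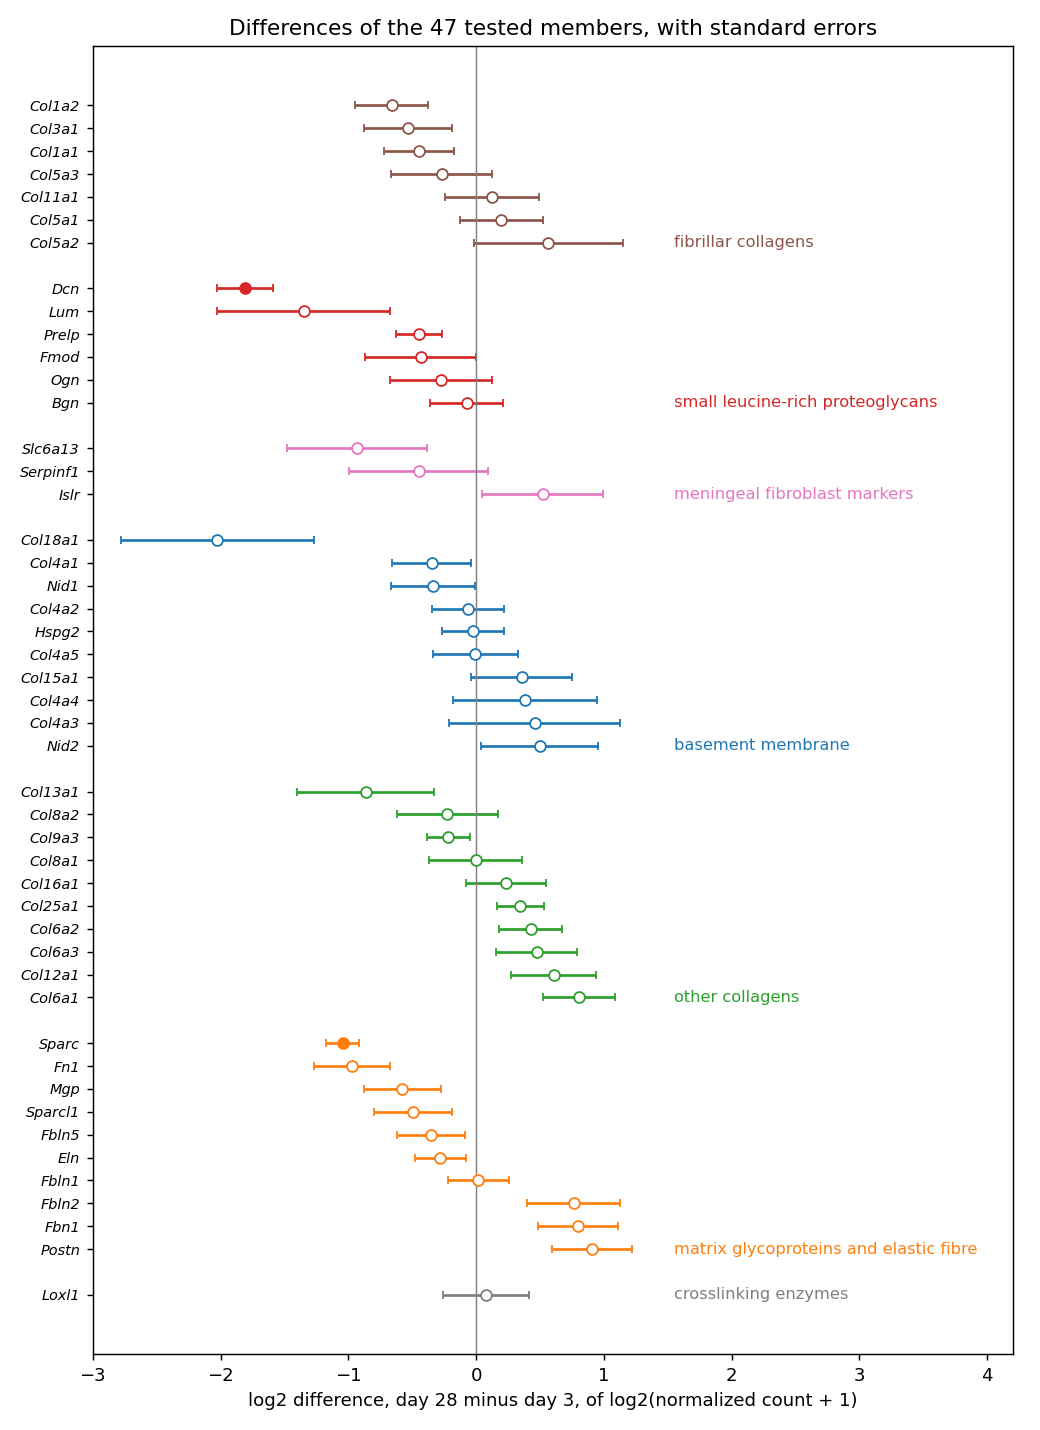
Log2 difference (x axis, day 28 minus day 3, on log2(normalized count + 1)) of each of the 47 tested members (y axis), with bars of 1 SE, coloured by class. Filled points mark Dcn and Sparc, which passed the threshold; open points, all other members, did not.

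The small leucine-rich proteoglycans all had negative differences, 6 of 6 tested, with a median of -0.44. Dcn stood at 347, 302 and 257 normalized counts in day 3 replicates 1 to 3 and at 102, 64.3 and 92.9 at day 28. Every day 28 library was below every day 3 library. The means were 302 ± 45.2 and 86.3 ± 19.6 (SD, n = 3), a 3.50-fold lower level at day 28, and Dcn fell by 1.81 on the log2 scale (SE 0.22, limma adjusted p = 0.0345). The call rested on most single libraries. Without day 28 replicate 1, day 28 replicate 2 or day 28 replicate 3 the adjusted p of Dcn was 0.186, 0.165 and 0.137. Leaving out day 3 replicate 1 gave 0.0551, and leaving out day 3 replicate 2 gave 0.133. With no trend in the variance prior Dcn and Sparc both had an adjusted p of 0.254, and with voom weights on the recovered reads 0.0535. The log2 difference of Dcn stayed between -1.94 and -1.61 in these fits and all other alternatives run.

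Lum encodes lumican, a corneal and connective tissue relative of decorin, and lies next to Dcn on chromosome 10. Its levels were low, at 22.9, 18.5 and 13.4 normalized counts at day 3 and 11.98, 7.14 and 2.84 at day 28. The groups did not overlap, but the difference of -1.35 (SE 0.68) did not pass (limma adjusted p = 0.428). Day 28 replicate 3 held 3 reads of Lum, so counting error is large there. Prelp, which encodes a proteoglycan of basement membrane and cartilage borders, stood at 351, 320 and 313 at day 3 and 191, 298 and 243 at day 28. Its groups did not overlap either, and its difference of -0.45 (SE 0.18) did not pass (limma adjusted p = 0.322). The other tested proteoglycans overlapped between the days. Their log2 differences were -0.43 for Fmod (fibromodulin), -0.28 for Ogn (osteoglycin) and -0.07 for Bgn (biglycan). Fmod ranged from 57.1 to 205 normalized counts within day 28 alone.

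**Figure D2:**
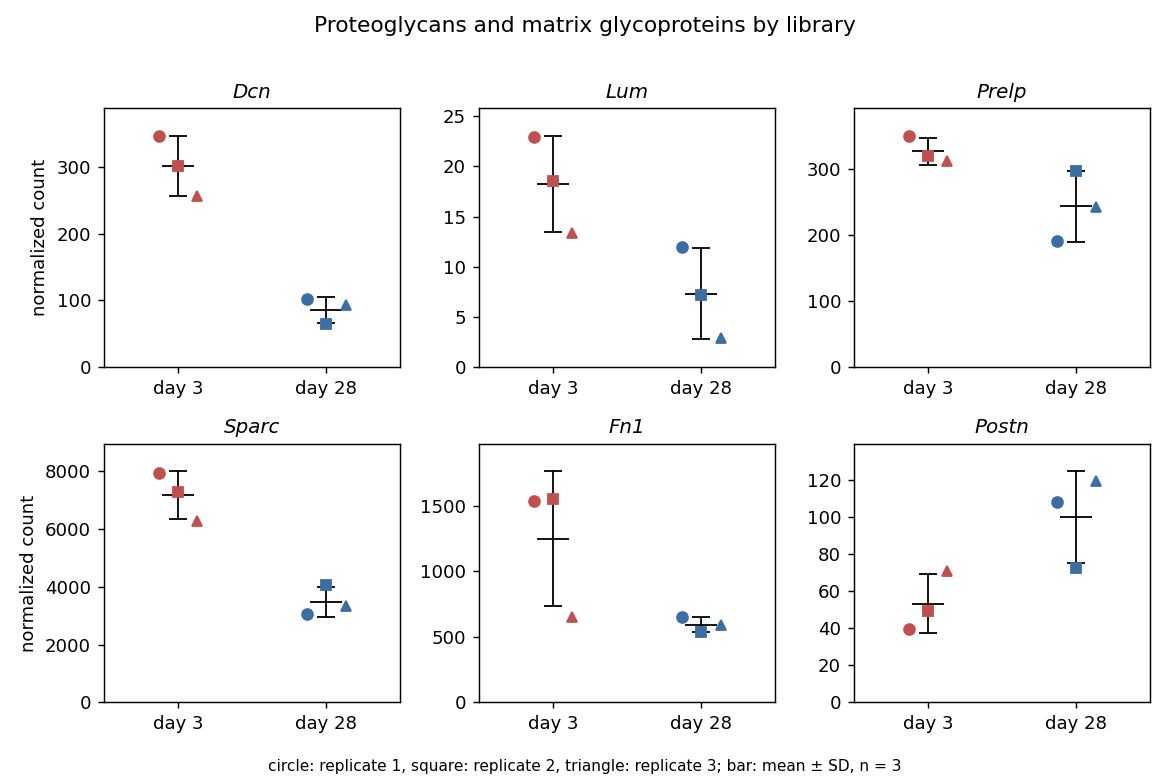
Normalized counts (y axis, from 0) of 3 proteoglycan genes, Dcn, Lum and Prelp, and of 3 glycoprotein genes, Sparc, Fn1 and Postn, at day 3 and day 28 (x axis). Each point is a library, the horizontal bar the mean and the whiskers 1 SD (n = 3). Dcn and Sparc are separated by a wide gap, whereas day 3 replicate 3 of Fn1 (654 normalized counts) lies beside day 28.

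Fibrillar collagens did not pass as single genes, 0 of 7, and had a median log2 difference of -0.27. The type I and III chains, the bulk of fibroblast collagen, had 3 negative differences of 3. Col1a2 stood at 185, 188 and 145 normalized counts at day 3 and 169, 81.3 and 91.9 at day 28 (log2 -0.66, SE 0.28, limma adjusted p = 0.363). Day 28 replicate 1 lay within the day 3 range and the other day 28 libraries lay below it. Without day 28 replicate 1 the log2 difference of Col1a2 was -0.98 (adjusted p = 0.386). Col1a1, the partner chain of the type I helix, had 87.0, 106 and 75.5 at day 3 and 86.9, 58.0 and 54.0 at day 28 (log2 -0.44, SE 0.27, limma adjusted p = 0.522). Col3a1 stood at 53.1, 79.2 and 47.5 and then at 44.9, 28.6 and 50.2 (log2 -0.53, SE 0.35, limma adjusted p = 0.547). Day 28 replicate 2 was the lowest library for Col1a2 and Col3a1.

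The minor fibrillar types V and XI, which start and limit fibril growth, had 3 positive differences of 4, and none passed. They were 0.57 for Col5a2, 0.20 for Col5a1, 0.12 for Col11a1 and -0.27 for Col5a3. Col5a2 spread widely, from 52.3 to 160 normalized counts at day 3 and from 65.2 to 330 at day 28. It lies next to Col3a1, whose difference had the opposite sign.

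The 3 meningeal markers did not move together. Slc6a13 encodes a GABA and taurine transporter of the meninges that liver also expresses. It stood at 48.5, 220 and 54.8 normalized counts at day 3 and 46.9, 31.3 and 55.9 at day 28 (log2 -0.93, SE 0.55, limma adjusted p = 0.505). Serpinf1, which encodes pigment epithelium-derived factor, a product of fibroblasts and hepatocytes, stood at 147, 763 and 156 and then at 206, 185 and 180 (log2 -0.45, SE 0.54, limma adjusted p = 0.765). In both genes day 3 replicate 2 was far above the rest. Without that library the log2 difference was -0.24 for Slc6a13 and 0.33 for Serpinf1. Day 3 replicate 2 also stood apart in hepatocyte markers. The list of 18 summed to 126884 normalized counts there, against 1546 and 2182 in the other day 3 libraries and 2060 to 3200 at day 28. Itih3, which did not stand apart in that way, gave 1465 of the 1546 in day 3 replicate 1 and 1041 of the 2182 in day 3 replicate 3. Without Itih3, left out after its values were seen, the other 17 markers summed to 124925 in day 3 replicate 2, 81.5 and 1142 in the other day 3 libraries, and 1188 to 2171 at day 28. The liver-made albumin gene Alb held 65795 reads in it. The part of these transcripts in the Slc6a13 and Serpinf1 values was not tested. Islr, a fibroblast surface protein gene, stood at 97.1, 57.6 and 130 at day 3 and 274, 104 and 75.8 at day 28 (log2 0.52, SE 0.47, limma adjusted p = 0.68). Its positive difference rested on day 28 replicate 1, without which it was -0.02.

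Set side by side, the 16 tested fibrillar, proteoglycan and meningeal members had a median log2 difference of -0.44, with 12 negative, and the 10 basement membrane members had a median of -0.02, with 6 negative. No test compared the medians. With single libraries left out, the first median ran from -0.46 to -0.28 and the second from -0.21 to 0.15. In the first group types I and III and the proteoglycans gave 9 of the 12 negative differences.

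Among basement membrane genes 0 of 10 passed. Col4a1 and Col4a2 encode the chains of the common type IV helix. Col4a1 stood at 1445, 601 and 632 normalized counts at day 3 and 707, 520 and 728 at day 28 (log2 -0.35, SE 0.31, limma adjusted p = 0.673). Col4a2 stood at 1548, 669 and 745 and then at 962, 738 and 953 (log2 -0.06, SE 0.28, limma adjusted p = 0.951). Day 3 replicate 1 was high for both, and the other day 3 libraries lay within or just below the day 28 range. Without day 3 replicate 1 the log2 differences were 0.06 for Col4a1 and 0.31 for Col4a2. The 17 endothelial markers were also highest in that library, with a summed level of 7131 normalized counts against 4721 and 5333 in the other day 3 libraries and 5212 to 5286 at day 28. The 14 mural cell markers, 13 of them tested, summed to 3425 there, against 2419 to 2974 in the other libraries. Whether the 2 patterns are linked was not tested.

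Col4a1 and Col4a2 lie head to head on chromosome 8 and are transcribed in opposite directions from a shared stretch. The promoter windows below (RefSeq, GRCm38.p6, 250 bases before to 50 after the start site, 5′ to 3′ on each gene's strand) are shown because both genes peaked in the same library. That library, day 3 replicate 1, was the highest for 14 of the 47 tested members. The start sites on which the windows are set are 21 bases apart, and the windows share 78 bases. Each start site lies downstream of the other, so the annotated starts of the genes overlap. Capitals mark 3 motifs on either strand: the TATA box (searched as TATAAA), the binding motif of factor NF-Y (searched as CCAAT) and the GC box of Sp1 (searched as GGGCGG). The Col4a1 window is chr8:11312777-11313076 (minus strand) and the Col4a2 window chr8:11312555-11312854 (plus strand).
Col4a1: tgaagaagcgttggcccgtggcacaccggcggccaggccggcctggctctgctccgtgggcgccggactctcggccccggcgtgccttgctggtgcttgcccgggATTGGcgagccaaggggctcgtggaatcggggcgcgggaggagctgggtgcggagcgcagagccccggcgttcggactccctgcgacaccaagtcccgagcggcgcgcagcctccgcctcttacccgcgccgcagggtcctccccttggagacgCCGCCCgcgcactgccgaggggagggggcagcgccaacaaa
Col4a2: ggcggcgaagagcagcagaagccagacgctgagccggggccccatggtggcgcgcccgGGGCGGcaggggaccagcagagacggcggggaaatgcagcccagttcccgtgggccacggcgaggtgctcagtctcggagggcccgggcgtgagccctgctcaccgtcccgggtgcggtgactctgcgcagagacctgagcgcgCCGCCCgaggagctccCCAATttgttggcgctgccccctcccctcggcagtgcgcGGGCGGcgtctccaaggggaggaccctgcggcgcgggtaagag
For comparison, the fibrillar gene with the smallest p, Col1a2 (chr6:4505368-4505667, plus strand), and the called gene Sparc (chr11:55420031-55420330, minus strand) have these windows.
Col1a2: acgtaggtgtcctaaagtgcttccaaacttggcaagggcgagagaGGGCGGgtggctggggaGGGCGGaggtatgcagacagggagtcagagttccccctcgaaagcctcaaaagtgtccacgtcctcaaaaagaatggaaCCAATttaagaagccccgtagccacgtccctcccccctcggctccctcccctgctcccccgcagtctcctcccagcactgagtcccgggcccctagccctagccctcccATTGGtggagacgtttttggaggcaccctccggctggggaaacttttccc
Sparc: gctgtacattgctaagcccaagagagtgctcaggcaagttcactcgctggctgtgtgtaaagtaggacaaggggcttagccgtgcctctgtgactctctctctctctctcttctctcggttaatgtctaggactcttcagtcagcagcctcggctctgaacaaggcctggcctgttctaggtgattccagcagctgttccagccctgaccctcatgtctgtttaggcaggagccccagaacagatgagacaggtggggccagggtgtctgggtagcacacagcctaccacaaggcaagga
Col1a2 held 2 CCAAT and 2 GGGCGG matches over both strands, Col4a1 held 1 of each, Col4a2 held 1 and 3, and Sparc held no match to any of the 3. The GGGCGG match of Col4a1 lies in the shared bases and is also counted for Col4a2. Of the 35 members with a window, 20 held GGGCGG (57.1%, against 35.7% of all 32851 windows), 15 held CCAAT (42.9% against 37.4%) and 3 held TATAAA (8.57% against 13.6%). Members were counted with 1 window per gene and the background with every window, unmatched to the members, and the shares were not tested. These are letter matches and not measured binding.

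The remaining type IV chains were scarce. Col4a3 and Col4a4, chains of the kidney-type network, ranged from 6.17 to 32.2 and from 9.16 to 30.3 normalized counts over the 6 libraries, and Col4a5 from 36.5 to 64.5. Their log2 differences were 0.46, 0.38 and -0.01. Nid2 (nidogen 2) had 46.7, 30.8 and 21.9 normalized counts at day 3 and 80.9, 33.0 and 34.1 at day 28 (log2 0.50, SE 0.46, limma adjusted p = 0.686), with day 28 replicate 1 alone above day 3. The other linkers were close to 0 or overlapped widely, with -0.34 for Nid1, -0.02 for the perlecan gene Hspg2 and 0.36 for Col15a1.

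Col18a1, the precursor gene of endostatin, had the most negative log2 difference of the set and did not pass. It stood at 583, 1142 and 94.9 normalized counts in day 3 replicates 1 to 3 and at 72.9, 92.9 and 136 at day 28 (log2 -2.03, SE 0.75, limma adjusted p = 0.293). Day 3 replicate 3 lay within the day 28 range. Fn1, which encodes fibronectin, an adhesive glycoprotein of plasma and tissue matrix, was likewise high in day 3 replicates 1 and 2 alone, at 1542, 1552 and 654 normalized counts and then 651, 537 and 590.5 (log2 -0.97, SE 0.30, limma adjusted p = 0.211). The 15 cerebellar neuron markers were high in the same libraries. They summed to 30642 and 30056 normalized counts in day 3 replicates 1 and 2 and to 3926 in day 3 replicate 3. At day 28 they summed to 3618 to 7090. In day 3 replicates 1 and 2 these sums were close, and Col18a1 stood at 583 and 1142. Col18a1 and, by a small margin, Fn1 were highest in day 3 replicate 2, where the hepatocyte markers also peaked. Without day 3 replicate 3 the limma adjusted p was 0.00722 for Col18a1 (log2 -3.06) and 0.00414 for Fn1 (log2 -1.39). Without day 3 replicate 2 it was 0.607 for Col18a1 (log2 -1.27) and 0.4965 for Fn1 (log2 -0.76). A covariate of the mean cerebellar marker level was added after the data were seen. With it the differences of Col18a1 and Fn1 were -0.48 and -0.42 (limma adjusted p = 0.819 and 0.716). All 15 markers had negative differences and were high where these genes were high. Only day 3 replicate 3 had a day 3 marker sum within the day 28 range. That fit therefore separates marker level from day largely through a single library. The part of a different share of brain regions, or of hepatocyte transcripts, in these values was not tested.

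**Figure D3:**
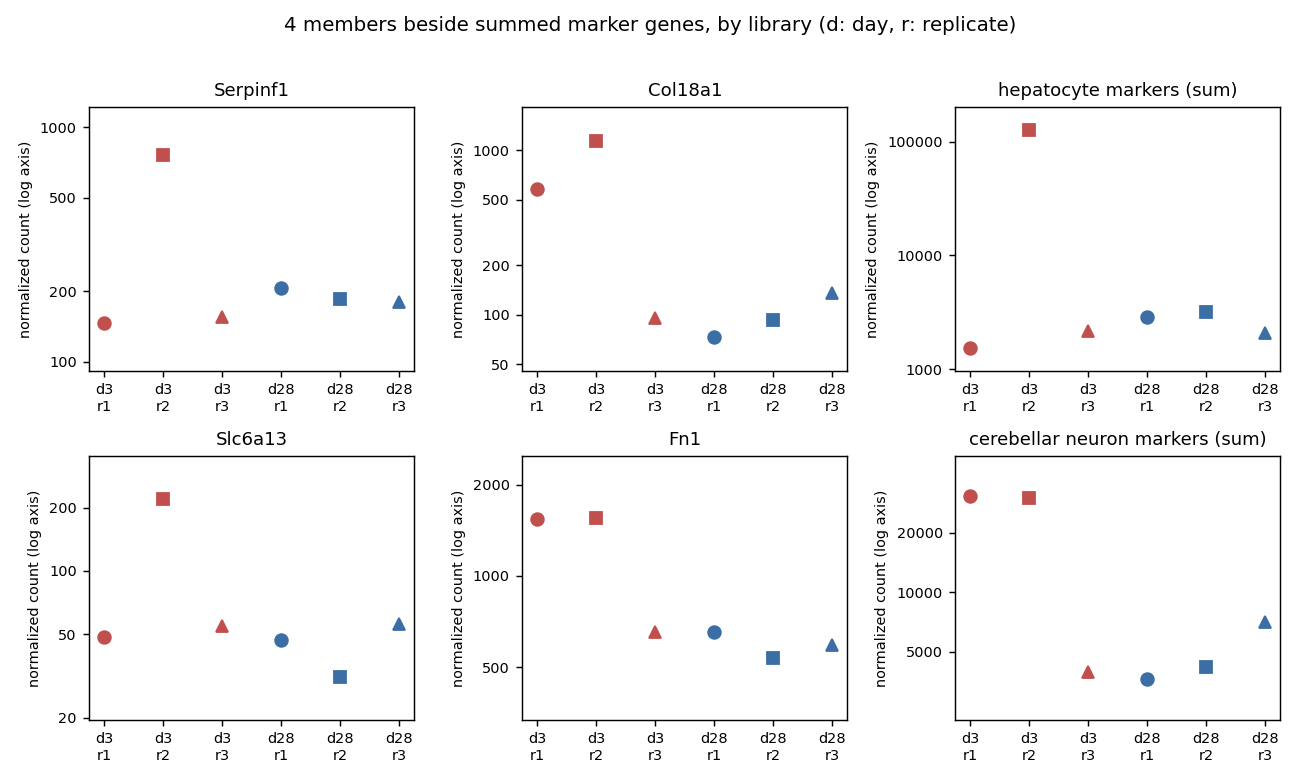
Normalized counts (y axes, logarithmic) in each library (x axes; d, day; r, replicate) of Serpinf1, Slc6a13, Col18a1 and Fn1 beside the summed counts of 18 hepatocyte and 15 cerebellar neuron markers. Serpinf1 and Slc6a13 peak in day 3 replicate 2, as the hepatocyte markers do. Col18a1 and Fn1 are high in day 3 replicates 1 and 2, as the cerebellar markers are. Col18a1 too is highest in day 3 replicate 2.

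Sparc was the only matrix glycoprotein that passed, of 10 tested. It stood at 7922, 7273 and 6281 normalized counts at day 3 and at 3046, 4056 and 3333 at day 28, so each day 28 library was below all of day 3. The means were 7159 ± 826 and 3478 ± 521 (SD, n = 3), a 2.06-fold lower level, and Sparc fell by 1.05 on the log2 scale (SE 0.13, limma adjusted p = 0.0345). The log2 difference of Sparc ran from -1.16 to -0.95 over the alternatives. The call of Sparc was lost when day 3 replicate 2 was left out (adjusted p = 0.133) and when day 28 replicates 1, 2 and 3 were left out in turn (0.241, 0.105 and 0.158). Its close relative Sparcl1 (hevin), an astrocyte product that acts at synapses, had 17775, 37316 and 34673 at day 3 and 16367, 17056 and 29422 at day 28 (log2 -0.50, SE 0.31, limma adjusted p = 0.524). Day 3 replicate 1 of Sparcl1 lay at the day 28 level, unlike Sparc. The 12 astrocyte markers summed to 86282 to 90713 normalized counts at day 3 and 79510 to 84250 at day 28, with 10 negative differences and a median of -0.33, and Aldoc passed (log2 -0.68, limma adjusted p = 0.0345).

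Postn, Fbn1 and Fbln2 went the other way, with day 28 above day 3 in every library, and none passed. Postn encodes periostin, a matricellular protein of collagen assembly, and stood at 39.4, 49.4 and 70.6 normalized counts at day 3 and 108, 72.3 and 119 at day 28 (log2 0.91, SE 0.31, limma adjusted p = 0.252). Fbn1 (fibrillin 1, the core of microfibrils) had a log2 difference of 0.80 and Fbln2 (fibulin 2) of 0.76. In Fbln2 the gap was narrow, 75.5 at most at day 3 against 79.5 at least at day 28, and day 28 replicate 1 stood at 210. The elastic fibre genes Eln and Fbln5 had differences of -0.28 and -0.35, Fbln1 of 0.02, and the calcification inhibitor gene Mgp of -0.58. Of the crosslinking enzymes Loxl1 alone was tested, at 51.3, 30.8 and 52.3 and then 54.9, 48.2 and 37.0 normalized counts (log2 0.08, SE 0.34, limma adjusted p = 0.95). Lox stayed between 1.79 and 11.9 normalized counts, Loxl2 between 2.43 and 9.48 and Omd between 1.83 and 4.87.

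The 10 other collagens had a median of 0.29, and 0 passed. All 3 type VI genes, which form beaded filaments around cells, were positive. Col6a1 stood at 955, 503.8 and 799.6 normalized counts at day 3 and 1810, 907 and 1247 at day 28 (log2 0.80, SE 0.28, limma adjusted p = 0.264), with day 28 replicate 2 within the day 3 range. Col6a2, next to it on chromosome 10, had a difference of 0.43 and Col6a3 of 0.47. Col12a1, a fibril-associated collagen, stood at 103, 46.3 and 85.2 and then 137, 86.6 and 122 (log2 0.61, SE 0.33, limma adjusted p = 0.467). Col25a1, a transmembrane collagen of neurons, stood at 841, 766 and 1217 and then 986, 1238 and 1320 (log2 0.35, SE 0.18, limma adjusted p = 0.449). The others ran from -0.86 for Col13a1, with 26.6 normalized counts at most, through -0.23 for Col8a2, -0.22 for Col9a3 and -0.0044 for Col8a1 to 0.23 for Col16a1.

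**Figure D4:**
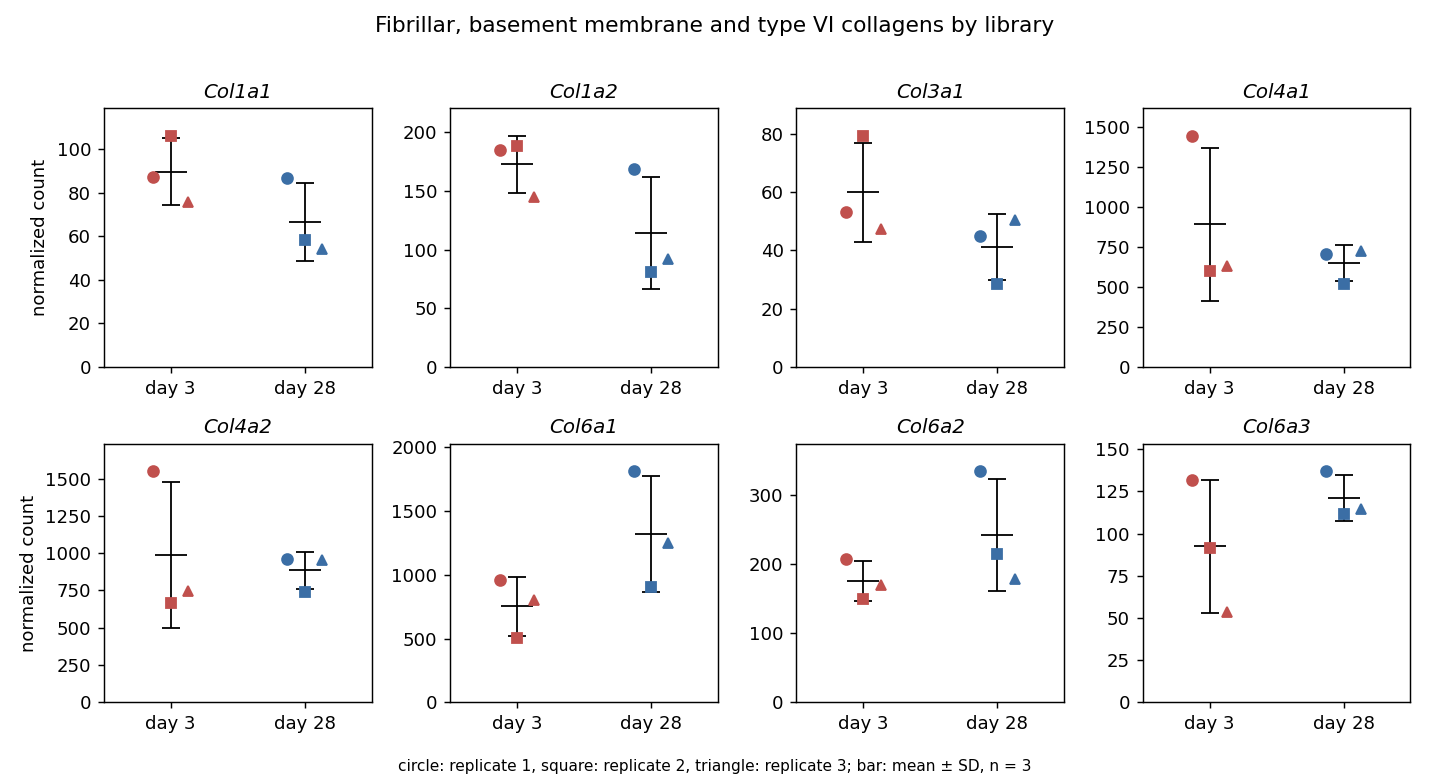
Normalized counts (y axis, from 0) of type I and III (Col1a1, Col1a2, Col3a1), type IV (Col4a1, Col4a2) and type VI (Col6a1, Col6a2, Col6a3) collagen genes at day 3 and day 28 (x axis). Each point is a library, the horizontal bar the mean and the whiskers 1 SD (n = 3). Groups overlap in all 8 genes, and day 3 replicate 1 stands alone for both type IV genes.

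Levels were divided by kilobases of exon, with all exons of a gene in the GENCODE M21 gene models merged. The order between genes depends on these lengths. Averaged over the 6 libraries, the level was highest for Sparcl1, at 8660 normalized counts per kb, and Sparc, at 1404. Among the collagens the averages were 237 for Col6a1, 141 for Col4a2, 103 for Col4a1, 82.0 for Col25a1 and 73.9 for Col9a3. The order changed between libraries: Col6a1 was highest per kb in 4 of 6, Col4a2 (234) in day 3 replicate 1 and Col18a1 (163) in day 3 replicate 2. The fibrillar chains Col1a1, Col1a2 and Col3a1 stood at 11.9, 11.5 and 5.15 per kb. Dcn went from 51.7 per kb at day 3 to 14.8 at day 28, from above the type I chains (13.6 and 13.9 at day 3) to near them (10.1 and 9.17 at day 28).

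The highest and lowest values of the members fell unevenly over the libraries. Such counts were not made over all genes tested, so a pattern of the members cannot be told from one of whole libraries. Of the 47 tested members 14 were highest in day 3 replicate 1, 13 in day 3 replicate 2 and 10 in day 28 replicate 1, against 1 each in day 3 replicate 3 and day 28 replicate 2. The lowest value fell in day 28 replicate 2 for 16 members and in day 3 replicate 2 for 12, among them 6 of the 10 other collagens. The median log2 deviation of all tested members from their own means was 0.20, 0.15 and -0.15 at day 3 and 0.10, -0.33 and 0.03 at day 28. Both days thus held libraries above and below 0.

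**Figure D5:**
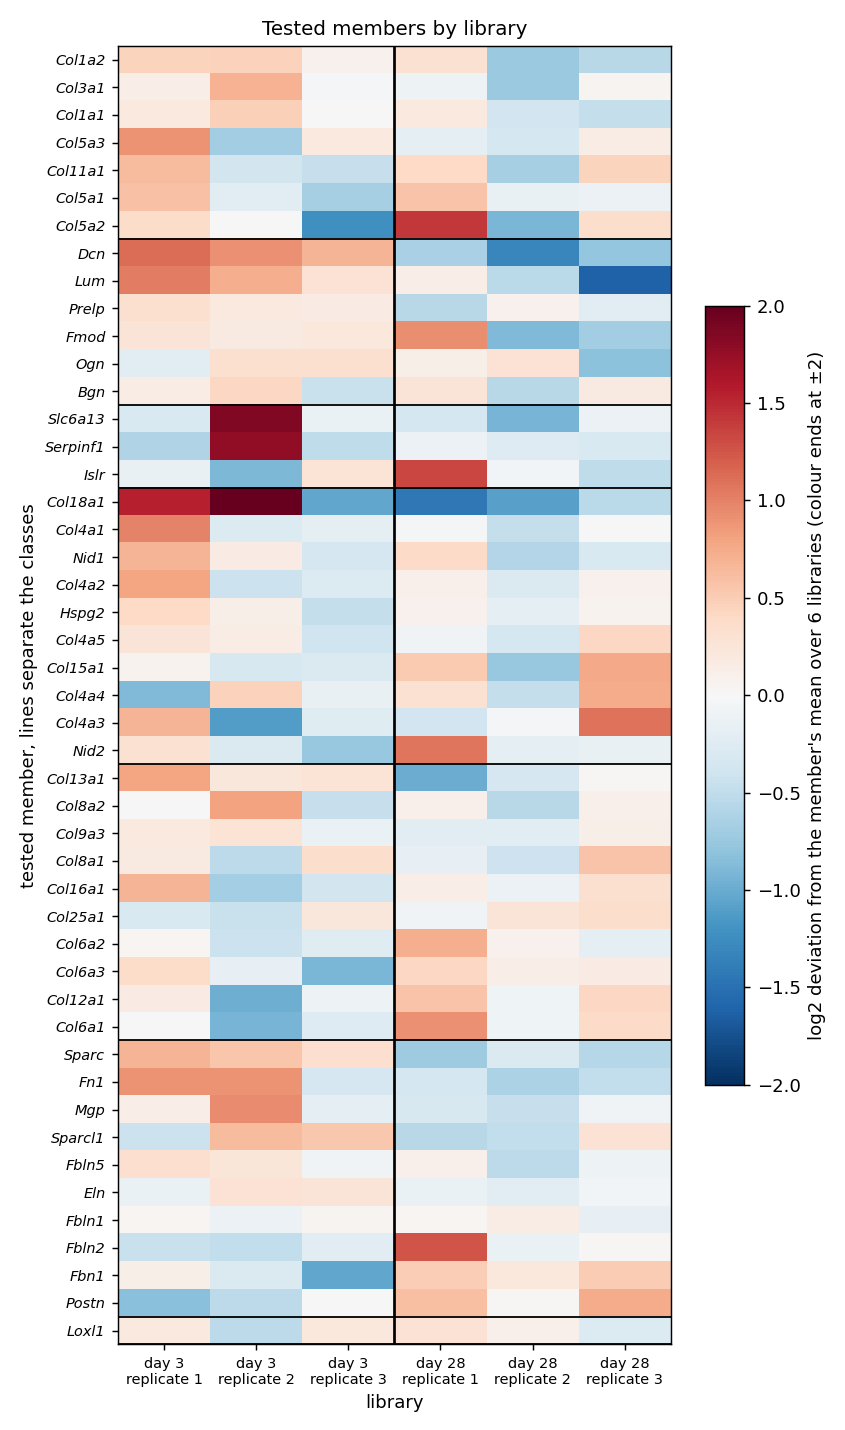
Log2 deviation (colour) of each tested member (rows, by class) from its mean over the 6 libraries (columns). Dcn and Sparc are above their mean in all day 3 libraries and below it in all day 28 libraries, and day 28 replicate 2 holds the lowest value of 16 members.

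Members that neighbour each other in the genome (7 pairs in RefSeq gene order) did not always pair in sign. Dcn and Lum (-1.81 and -1.35), Prelp and Fmod (-0.45 and -0.43), Col4a3 and Col4a4 (0.46 and 0.38), Col6a1 and Col6a2, and Col4a1 and Col4a2 had equal signs. Col3a1 and Col5a2 had opposite signs, and Omd, beside Ogn, was not tested.

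Genes that make, cut and signal to this matrix were given by lists, and 0 of the tested genes of these 4 lists passed. Collagen synthesis and processing had 27 tested genes, 17 negative, and a median of -0.05. Plod1, a collagen lysyl hydroxylase, had 439 ± 21.1 and 299 ± 6.64 normalized counts (SD, n = 3; log2 -0.55, limma adjusted p = 0.102). The procollagen N-proteinases Adamts2 and Adamts3 had log2 differences of -0.54 and 0.87. Matrix proteases and inhibitors had 19 tested genes, 14 negative, and a median of -0.12, with -1.07 for the protease inhibitor Timp4 (limma adjusted p = 0.112), -0.50 for the serine protease Htra1 and 0.73 for the membrane collagenase Mmp14. The 21 genes of the TGF-beta pathway, a main inducer of collagen genes, had a median of 0.05. Ltbp1 and Ltbp4, which hold latent TGF-beta in the matrix, had differences of 1.04 and 0.65 (limma adjusted p = 0.132 and 0.169), and Ccn1 of 1.21. The other meningeal fibroblast genes had 27 of 32 tested, 17 negative, and a median of -0.06. Their summed level was 9506 to 10902 normalized counts at day 3 and 10098 to 10653 at day 28. The list includes genes that neurons and glia also express, among them Igfbp5, Dkk3 and Pdgfra. Its members of smallest p were Cdh11 (log2 0.44), Lama1, a meningeal laminin chain (-0.86), and Pcolce, an enhancer of procollagen cleavage (-0.55).

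Astrocyte and oligodendrocyte markers were abundant in all 6 libraries, as the tissue label says. Markers of tissue that could accompany the brain were also summed. The 13 bone and cartilage markers, 4 of them tested, summed to 161 to 346 normalized counts at day 3 and 165 to 281 at day 28, and the osteocalcin genes Bglap and Bglap2 were at 0 in all 6 libraries. The 11 skeletal muscle markers, 5 of them tested, summed to 70.5 to 197 and 110 to 128. Choroid plexus markers summed to 12372 to 22143 and 12611 to 19010, highest in day 3 replicate 2. Ttr gave 14114 of that highest sum, against 6230 and 7469 normalized counts in the other day 3 libraries. Not every marker peaked there, and Kl and Car12 were highest at day 28. The part of hepatocyte transcripts in that sum was not tested. Ependymal markers summed to 427 to 850 and 506 to 568. Red cell markers, with 6 of 6 tested genes negative and a median of -1.05, summed to 2250 to 5288 and 1616 to 2147, and the groups did not overlap. The 12 oligodendrocyte markers, 9 of them negative, summed to 116412 to 138118 and 79389 to 98132, also without overlap. The 20 long transcripts, a sign of RNA integrity, were positive in 19. They summed to 99293, 70117 and 73998 normalized counts in day 3 replicates 1 to 3 and to 92176, 88620 and 96893 at day 28. Their lowest sum was in day 3 replicate 2, which also held the lowest value of 6 of the 10 other collagens. The part of these differences in the fall of Dcn and Sparc, or in the positive differences of other collagens, was not tested.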

How the data were processed

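Polyadenylated brain RNA was sequenced in 6 libraries from 1 µg of total RNA each, per the labels' protocols. The deposited table held log2 values. After removal of the log2 and the 1 inside it, 100% of values in each library were whole multiples of a common unit (tolerance 0.001 reads); the deposited values are therefore size-factor-scaled read counts plus 1, logged. The build was GRCm39, per the submitters' processing notes, while aligner, counter and annotation are not given in the sources used here. Libraries were stranded, per the labels' protocols, but the strand setting of the counting is not known, so antisense, overlapping and near-identical genes are uncertain. Symbols came from GENCODE M21 and matched 15978 of the 16162 genes tested. Exon lengths and promoter windows came from GRCm38 tables and were used only for lengths, order and letters.

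Groups followed the sample titles. limma 3.58.1 (R 4.3.3, lmFit and eBayes with an intensity trend, group as the only term, 4 residual degrees of freedom) was run on genes averaging 10 or more normalized counts, two-sided, with Benjamini-Hochberg adjustment at 0.05 over all of them. A fold on the log2(value + 1) scale understates changes of low genes. The procedure was tested on simulated counts drawn independently for each gene and library. They held none of the shared single-library differences described above, so that test does not cover them. Libraries of a group differed beyond sampling noise (lowest chi-square over its degrees of freedom 8.98). Values in every library are given for members that passed, the 3 of smallest p per class and 8 fixed members, and for up to 3 genes of smallest p in 4 related lists the difference is given; other members appear by ranges. Members and lists were chosen with earlier results of these data known. Alternatives changed the pseudocount, filter, scaling, variance prior, library weights, replicate block, threshold, voom on recovered reads and single libraries. Figures used matplotlib 3.10.9.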

Additional observations from a re-analysis of the deposited data

How the results depend on the processing

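Over all genes tested, 11 rose and 20 fell. No filter gave 30 and 38, a robust prior 37 and 37, array weights 29 and 40, no trend in the prior 0 and 3, voom on recovered reads 0 and 0, and an adjusted p of 0.1 gave 81 and 71. The cerebellar covariate, chosen after seeing the data, gave 0 and 2. Leaving out 1 library gave 0 to 325 higher (0 without day 3 replicate 2 or any 1 of the day 28 libraries, 325 without day 3 replicate 3) and 1 to 298 lower (lowest without day 28 replicate 1, highest without day 3 replicate 3).

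Members called lower numbered 2 and became 0 with no trend, voom, the replicate block or the covariate. Leaving out 1 library gave 0 to 4: 4 without day 3 replicate 3 (Dcn, Sparc, Fn1 and Col18a1), 1 without day 3 replicate 1 (Sparc) and 0 without any of the other 4 libraries. Dcn and Sparc stayed negative throughout. No alternative called a member higher.

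Deviations from the group means of libraries with the same replicate number had correlations of 0.03, 0.13 and -0.06 across the days. Not every library correlated best with its own number, though replicate 2 did. These values cannot settle whether the numbers pair the libraries, and the main fit had no pairing term. A fit with the replicate block called 0 genes higher and 0 lower.

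Of 21 named members 16 kept their sign in all alternatives. The log2 differences that changed sign, none of them past the threshold, were as follows. With the covariate Islr stood at -0.13, Serpinf1 at 0.0058, Col4a2 at 0.18 and Loxl1 at -0.22, and with array weights Col4a2 stood at 0.0951. Leaving out 1 library gave -0.016 to 0.90 for Islr, -0.86 to 0.33 for Serpinf1, -0.57 to 0.0637 for Col4a1, -0.29 to 0.31 for Col4a2 and -0.17 to 0.23 for Loxl1. Beyond fewer samples in those fits, the cause was not tested. Depth limited Lum, Col4a3, Col4a4 and Col13a1, with under 35 reads in each library, and the 3 untested members.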
